A study of Mus musculus with 12 samples.

Results

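The genes described here are 33 genes that mark astrocytes, the star-shaped glial cells that surround synapses and blood vessels in the brain. They were taken as a list by symbol from a table of 55421 genes counted by RNA-seq in mouse hippocampus, and all 33 were among the 22592 genes with enough reads to be tested. The mice were *Fmr1* knockout (KO) animals, a mouse model of fragile X syndrome, and wild-type (WT) animals, of a C57B/L6 background according to the methods. Each mouse was given vehicle (Veh) or Nutlin-3 (Nut3), a small molecule that blocks MDM2, the protein that holds p53 down. The drug was given by intraperitoneal injection at 2 months of age (5 injections of 10 mg/kg, dissolved in dimethyl sulfoxide), and the hippocampus was taken at 6 months, 4 months after the last injection. KO-Nut3, KO-Veh, WT-Nut3 and WT-Veh had 3 mice each, and every mouse gave 1 library, named here by its group and animal number. The *Fmr1* loss is in every cell of the animal, and the methods do not say whether these mice carried the *Nestin*-GFP transgene of the study's histology. Reads counted on genes ranged from 17150820 in WT-Veh RH2 to 20040482 in WT-Nut3 RH9. *Fmr1* itself had 73.97 to 79.5 CPM (read counts scaled to library size with the TMM factors of edgeR) in the 6 WT libraries and 28.5 to 37.3 CPM in the 6 KO libraries, so each library matched its genotype label.

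Astrocytes take up glutamate and convert it to glutamine, buffer potassium and water, pass ions and metabolites to each other through gap junctions, and wrap vessels with end-feet. When tissue is injured or inflamed they become reactive, which is known for more of the filament proteins GFAP and vimentin and for secreted proteins such as SERPINA3N and lipocalin-2. In the adult hippocampus the neural stem cells of the dentate gyrus are radial glia-like cells that share many astrocyte genes, GFAP among them. The expression of the 33 genes was measured in whole tissue, where fewer cells of a type and less RNA per cell cannot be told apart.

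Among the 33 genes, *Aqp4*, the water channel of the end-feet, and *Serpina3n*, a secreted protease inhibitor of reactive astrocytes, separated the genotypes in every library. Of all genes tested, 0.177% did so as higher in KO and 0.359% as lower. *Aqp4* was at 152 to 192 CPM in the 6 KO libraries and 129 to 142 CPM in the 6 WT libraries, and *Serpina3n* at 25.6 to 35.5 CPM in KO and 39.7 to 52.3 CPM in WT. Neither passed the threshold of edgeR after adjustment over all genes, and both passed that of DESeq2. *Gfap*, the usual marker of reactive astrocytes, had means of 417 CPM in KO and 369.7 CPM in WT, with overlap. No member separated Nutlin-3 from vehicle in all libraries, which 0.15% of all genes did as higher and 0.093% as lower.

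RNA of astrocytes was present in every library, with 32 of the 33 genes at 10 CPM or more in each. The exons of 6 of them (*Aldh1l1*, *Slc1a2*, *Glul*, *Fgfr3*, *Slc7a10* and *Gpc5*) overlap a gene on the opposite strand. Those of *Aldh1l1* and *Glul* also overlap a gene on the same strand. Reads of both strands were counted as one, and a read on exons of both genes is assigned to neither in such counts. The levels of these 6 genes, also per kilobase of exon, may therefore be too low. The exception among the levels was *Lcn2*, the gene of lipocalin-2, which had between 0 and 118 counts. The lowest count of any other member in any library was 224. Summed over the 33 genes, the level ran from 9706 CPM in WT-Nut3 RH9 to 11773 CPM in KO-Veh RH16. The coefficient of variation over the 12 libraries had a median of 10.1% over the members, was lowest for *Gpc5*, a glypican of the astrocyte surface, at 4.33%, and was under 20% for 29 of the 33.

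Levels of the 33 genes were ranked against each other only per kilobase of exon. Where a gene is called the most abundant of another list, the rank is by CPM, without regard to exon length. *Cst3*, which encodes the secreted protease inhibitor cystatin C, had the highest level of the 33, with a mean of 761 CPM per kilobase (687 to 967 over the 12 libraries). *Glul*, the gene of glutamine synthetase, followed at 402 CPM per kilobase (364 to 448), and *Slc1a2*, the main glutamate transporter of the forebrain, at 239 (206 to 260). *Clu* (clusterin) and *Aldoc* (aldolase C) came next at 212 and 210 CPM per kilobase, and their ranges over libraries overlapped almost wholly. *Gfap* ranked 7 of 33 with 93.3 CPM per kilobase (82.1 to 114), next to *Plpp3* at 92.0 (79.1 to 109). *Aqp4*, the water channel of the end-feet, had 24.0 CPM per kilobase, *Serpina3n* 18.8 and *Vim* 9.03. At the low end stood *Slc14a1* (urea transporter, 4.79), *Cbs* (cystathionine beta-synthase, 4.52) and *Thbs4* (thrombospondin-4, 4.46), whose ranges over libraries overlapped, and then *Lcn2* at 0.303. The ranges over libraries of neighbours in this order did not overlap between *Cst3* and *Glul*, *Glul* and *Slc1a2*, *Aldoc* and *Atp1b2*, *Gpc5* and *Slc14a1*, and *Thbs4* and *Lcn2*, and they overlapped between all other neighbours.

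Several libraries stood apart in genes of other tissues. The mean log2 CPM of 14 genes of the choroid plexus epithelium was 6.17 in WT-Nut3 RH9, 5.92 in KO-Nut3 RH6, 6.21 in KO-Nut3 RH13 and 3.002 in KO-Nut3 RH8, and at most 1.06 in the other 8 libraries. The most abundant of these genes over the 12 libraries, *Ttr* (transthyretin), had 4215, 3091, 4520 and 314 CPM in RH9, RH6, RH13 and RH8 and 3.15 to 18.2 CPM elsewhere. In the other 8 libraries *Enpp2* of the same list was higher than *Ttr*, at 113 CPM or more. The summed level of the 14 genes was 670 to 7146 CPM in the 4 libraries and 155 to 223 CPM in the others, and 1 of the 14 genes was at 0 in WT-Veh RH2 and 1 in KO-Veh RH10. The mean of 12 meningeal fibroblast genes was 4.39 in KO-Nut3 RH8, 3.89 in WT-Veh RH5 and 3.56 in KO-Nut3 RH6, against 1.65 to 2.92 in the remaining libraries. Their sum was 309 CPM in KO-Nut3 RH8, 234 in WT-Veh RH5 and 161.5 in KO-Nut3 RH6, and 66.3 to 129 CPM in the others. Their most abundant gene, *Dcn* (decorin), did not follow the list, with 20.4 CPM in KO-Nut3 RH6 and 28.4 to 58.3 CPM in the other 11, and none of the 12 was at 0 in any library. KO-Nut3 RH6 also stood apart in 8 genes that mark the thalamus, at a mean of 5.39 against 3.99 to 4.27 in the other 11 libraries, with a sum of 405 against 178 to 204 CPM and none of the 8 at 0 anywhere. Their most abundant gene, *Ntng1* (netrin-G1), lay within the range of the others there, with 51.7 CPM against 40.9 to 53.05 CPM, while *Slc17a6* (the vesicular glutamate transporter of thalamic neurons, named here after its values were seen) had 113 CPM in KO-Nut3 RH6 and 8.42 to 22.2 CPM elsewhere. The mean of 10 neuron genes was 8.77 in KO-Nut3 RH6 and 8.90 to 9.05 in the others, with a sum of 7734.5 against 9553 to 11086 CPM. *Camk2a*, the most abundant of them, had 2754 CPM in KO-Nut3 RH6 and 3933 to 4860 CPM in the others. *Gad1* and *Gad2* of this list were highest there, at 365 and 275 CPM against 287 to 329 and 147 to 181 CPM. *Snap25* and *Stmn2* lay within the range of the other libraries, and the remaining neuron genes below it.

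**Figure D1:**
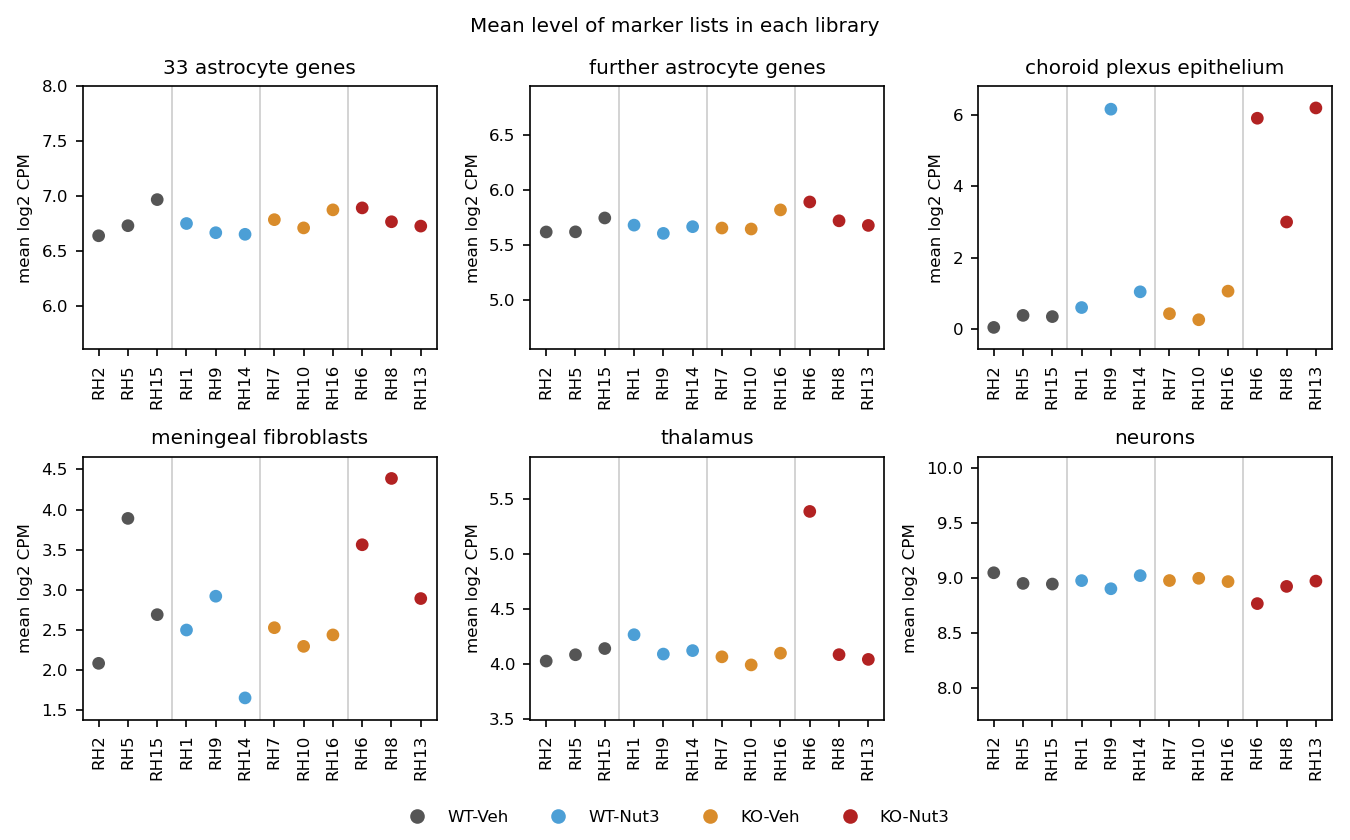
Mean log2 CPM of marker lists (vertical axis) in each of the 12 libraries (horizontal axis, by animal number), 1 point per library, colored by group. The 33 astrocyte genes lie within a narrow band in all libraries, while the choroid plexus genes are high in RH9, RH6, RH8 and RH13, the fibroblast genes in RH5, RH6 and RH8, and the thalamus genes in RH6.

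None of the 33 astrocyte genes passed the threshold (adjusted *P*-value under 0.05 in the quasi-likelihood test of edgeR) in any of the 7 comparisons. Between KO-Nut3 and KO-Veh, where 0.199% of all genes passed, 2 of the 33 had an unadjusted *P*-value under 0.05 (7.6% of all genes) and DESeq2 called 0 (1.08% of all genes). For KO-Veh against WT-Veh, where 0.0177% of all genes passed, 4 had an unadjusted *P*-value under 0.05 (7.2% of all genes) and DESeq2 called 1, *Aqp4* (0.12% of all genes). The 4 became 11 without WT-Veh RH15 (2187 of the 22592 genes tested) and 8 without KO-Veh RH7 (1620). Leaving out any other single library gave 4 or 5. Between WT-Nut3 and WT-Veh, where 0% of all genes passed in edgeR and 0% in DESeq2, 1 of the 33 had an unadjusted *P*-value under 0.05 (3.17% of all genes). Between KO-Nut3 and WT-Nut3, where 0.00443% of all genes passed, the number was 7 of 33 (4.87% of all genes), and DESeq2 called 0 (0.031% of all genes). With all 12 libraries, KO against WT gave 8 of 33 at an unadjusted *P*-value under 0.05 (8.16% of all genes), 6 higher (3.8% of all genes) and 2 lower (4.36%) in KO, where 0.00443% of all genes passed after adjustment. DESeq2 called 2 of the 33 there, *Aqp4* and *Serpina3n* (0.204% of all genes). Nutlin-3 against vehicle gave 5 of 33 (7.29% of all genes), 2 higher (5.02% of all genes) and 3 lower (2.28%), where 0% passed in edgeR and DESeq2 called 0 of the 33 (0.35% of all genes). Without WT-Nut3 RH9 the 5 became 0 (1403 of the 22592 genes tested), and it was 2 without WT-Veh RH15 and 2 without KO-Veh RH16. Leaving out any other single library gave 3 to 6. The interaction of genotype and treatment gave 1 of 33 (4.17% of all genes), where 0% passed in edgeR and DESeq2 called 0 (0.00443% of all genes).

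The median log2 fold change of the 33 genes was -0.03 for KO-Nut3 against KO-Veh and -0.01 for KO-Veh against WT-Veh. It was -0.05 for WT-Nut3 against WT-Veh and 0.04 for KO-Nut3 against WT-Nut3. It was 0.03 for KO against WT and -0.03 for Nutlin-3 against vehicle over 12 libraries. The medians of all genes tested lay between -0.004 and 0.005 in these 4 pairs of groups. For KO against WT, 32 members (without *Lcn2*) lay between -0.47 and 0.31 on the log2 scale, and the 95% intervals of all 32 stayed inside a change of 1 on that scale, 28 of them inside 0.5. For Nutlin-3 against vehicle the same 32 lay between -0.19 and 0.32, with 30 intervals inside 0.5, and 0 of the 33 genes separated all 6 Nutlin-3 from all 6 vehicle libraries (0.15% of all genes did so as higher and 0.093% as lower).

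**Figure D2:**
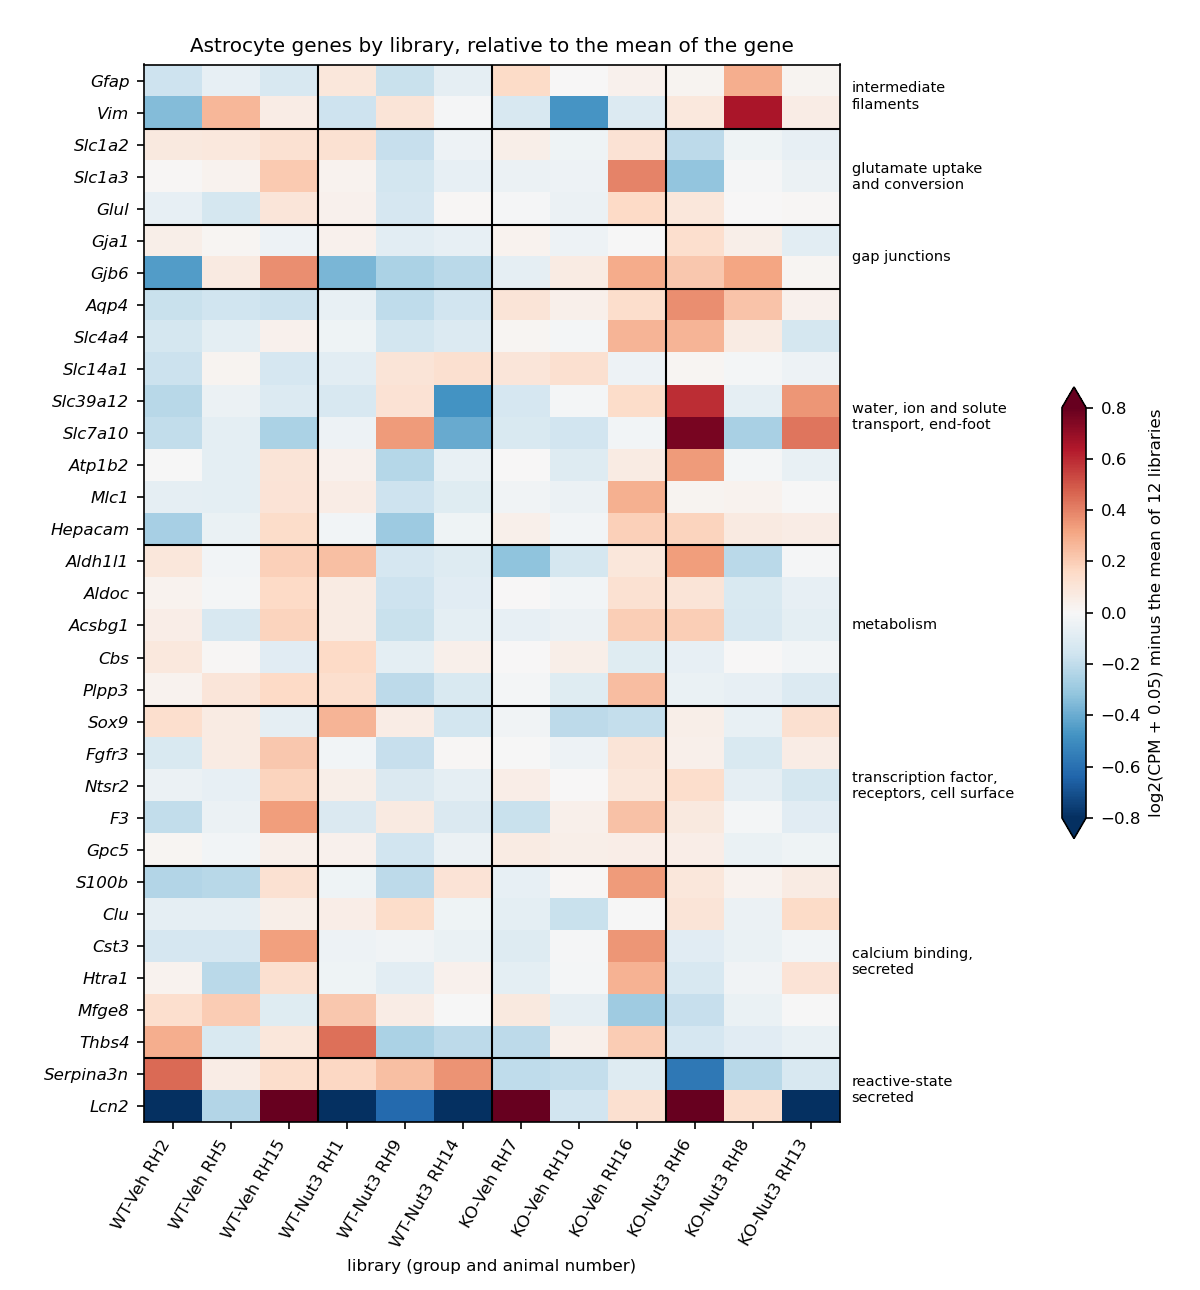
Level of each of the 33 astrocyte genes (rows, grouped by role) in each of the 12 libraries (columns), as log2(CPM + 0.05) minus the mean of the gene over the 12 libraries; red is above and blue below that mean, and the color scale ends at 0.8 in either direction. *Aqp4* is red across the 6 KO libraries and blue across the 6 WT libraries, *Serpina3n* the reverse, and 10 rows, *Slc1a3*, *Cst3* and *S100b* among them, have their highest values in WT-Veh RH15 and KO-Veh RH16.

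**Figure D3:**
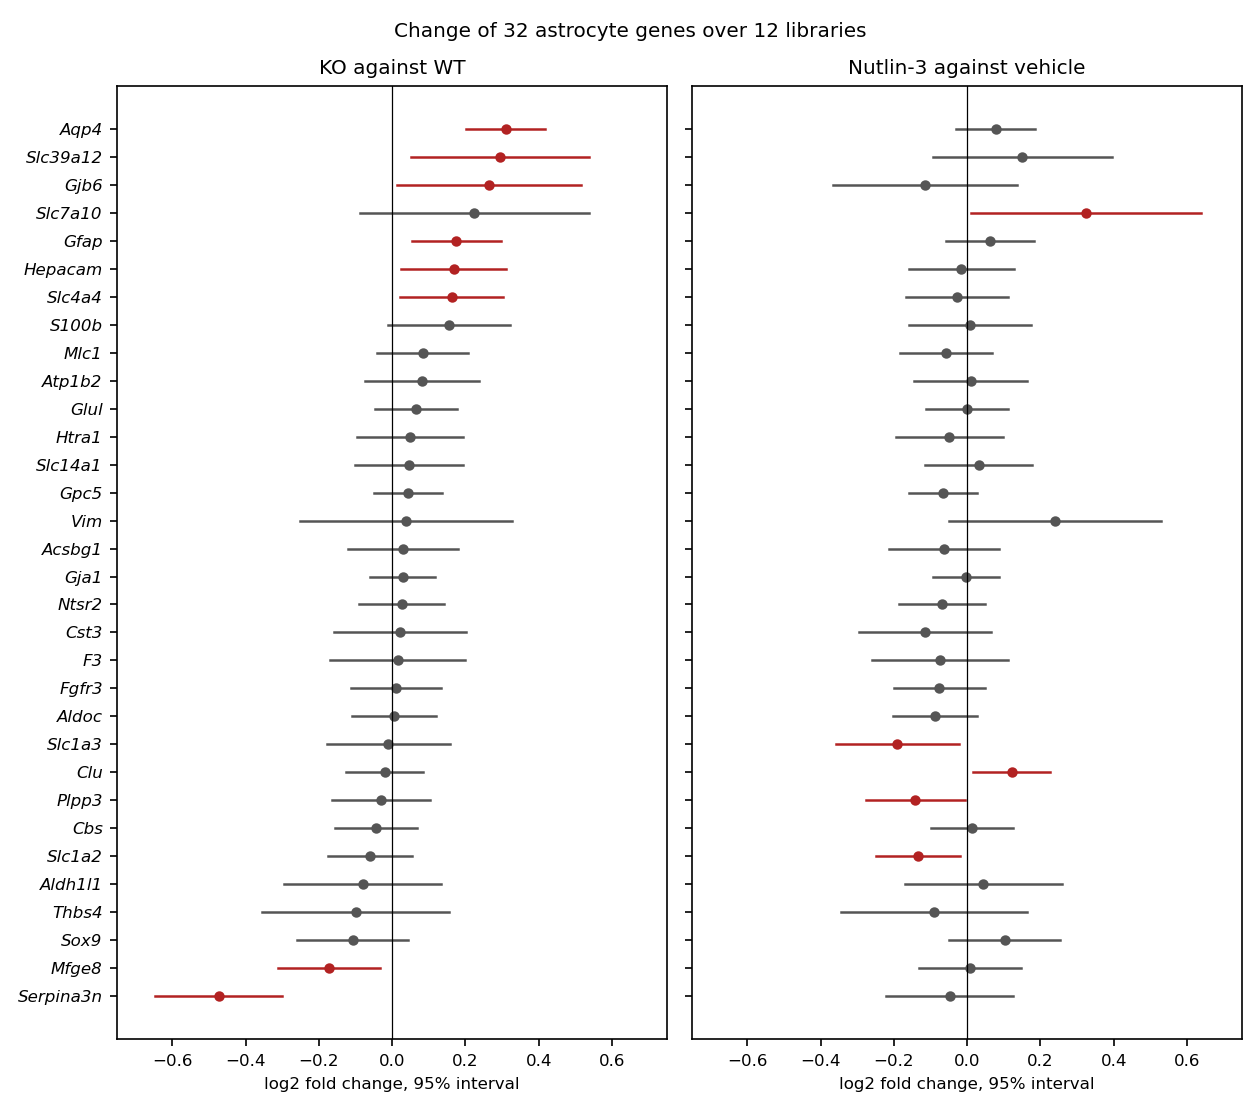
Log2 fold change (points) with its 95% interval (lines) for 32 astrocyte genes in the fits of all 12 libraries, for KO against WT (left) and Nutlin-3 against vehicle (right), in the order of the change between genotypes; red marks an unadjusted *P*-value under 0.05 in edgeR. *Aqp4* and *Serpina3n* lie at the ends on the left, at 0.31 and -0.47, and no gene reached the adjusted threshold in either panel.

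Of the 8 members for water, ion and solute transport and the end-foot membrane, 8 had a log2 fold change above 0 for KO against WT (51.9% of all genes), with a median of 0.16, against 22 of all 33 members. An unadjusted *P*-value under 0.05 was found for 4 of the 8 (8.16% of all genes), and 0 passed in edgeR (0.00443%). *Aqp4* (ENSMUSG00000024411, on chromosome 18) encodes aquaporin-4, through which water crosses the end-foot membrane. Its level was 131, 133 and 132 CPM in WT-Veh (RH2, RH5 and RH15) and 142, 129 and 134 CPM in WT-Nut3 (RH1, RH9 and RH14). It was 160, 152 and 163 CPM in KO-Veh (RH7, RH10 and RH16) and 192, 174 and 152 CPM in KO-Nut3 (RH6, RH8 and RH13). All 6 KO libraries thus lay above all 6 WT libraries, a pattern that 0.177% of all genes tested had in this direction.

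The mean of *Aqp4* was 165.6 ± 15.2 CPM in KO and 133 ± 4.67 CPM in WT (SD, n = 6 each). The log2 fold change was 0.31 (standard error, abbreviated SE, 0.05; 95% interval 0.20 to 0.42), with an adjusted *P*-value of 0.0737 in edgeR and 4.42e-05 in DESeq2. Within vehicle the change was 0.26 (SE 0.05; adjusted *P*-value 0.313 in edgeR, 0.0160 in DESeq2), and within Nutlin-3 it was 0.35 (SE 0.09; adjusted *P*-value 0.928 in edgeR, 0.265 in DESeq2). In each of these pairs the 3 KO libraries were above the 3 WT libraries, which 5.9% and 5.3% of all genes showed in this direction. Without the 5 libraries with raised choroid plexus, fibroblast or thalamus genes, the remaining 7 libraries gave 0.27 (edgeR adjusted *P*-value 0.674). These 7 hold no KO-Nut3 library, so KO is KO-Veh alone in that fit, and a change under Nutlin-3 compares 2 WT-Nut3 with 2 WT-Veh libraries. With all 12 libraries it was 0.32 with the choroid plexus mean as a term and 0.29 with the fibroblast mean as a term. For Nutlin-3 against vehicle *Aqp4* had a log2 fold change of 0.08.

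Genes of the ependyma, the lining of the ventricles whose cells also make aquaporin-4, were higher on average in KO. Of 9 tested, 6 had an unadjusted *P*-value under 0.05 for KO against WT, all higher in KO (3.8% of all genes), with a median of 0.63, and 0 passed in edgeR or DESeq2. Between KO-Veh and WT-Veh 5 of 9 had such a *P*-value (7.2% of all genes), with a median of 0.80. The summed level of the 10 listed genes was 27.6 to 56.3 CPM in KO and 17.6 to 45.7 CPM in WT, their most abundant gene, *Foxj1*, had 11.4 to 26.8 and 8.24 to 23.7 CPM, and *Mia* was at 0 in 8 libraries. The part of ependyma in the differences of *Aqp4* and the other transport genes was not tested.

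The labels name no batch. The libraries were also divided by animal number, up to RH8 and from RH9, a division the labels do not give. These 2 runs of numbers differ in the share of reads mapped to several places (3.07% to 3.22% against 3.33% to 3.55%). The first run holds WT-Veh RH2 and RH5, WT-Nut3 RH1, KO-Veh RH7 and KO-Nut3 RH6 and RH8. Within each run the genotypes thus differ in their mix of treatments, and the treatments in their mix of genotypes. This applies to all values within a run given here and below. Within the first run *Aqp4* was at 175 ± 16.2 CPM in KO and 136 ± 6.02 CPM in WT (SD, n = 3 each), and within the second at 156 ± 6.43 and 131 ± 2.33 CPM, with KO above WT in every library of each run. With the number run as a term, *Aqp4* passed the threshold for KO against WT in edgeR, at 0.31 with an adjusted *P*-value of 0.0190. In that fit 10 of all 22592 genes tested passed.

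Of the other 7 transport and end-foot genes, none separated the genotypes in all libraries. *Slc39a12*, a zinc transporter, had 40.6, 44.1 and 49.4 CPM in KO-Veh and 67.1, 42.4 and 57.1 CPM in KO-Nut3. In WT-Veh it had 38.2, 43.1 and 41.4 CPM and in WT-Nut3 40.8, 48.3 and 31.96 CPM. KO-Nut3 RH6 was the highest library and the genotypes overlapped. The log2 fold change for KO against WT was 0.29 (SE 0.11; edgeR adjusted *P*-value 0.520), and it was 0.20 without KO-Nut3 RH6 and 0.14 with the choroid plexus mean as a term. Between KO-Nut3 and WT-Nut3 it was 0.45 (SE 0.18; edgeR adjusted *P*-value 0.928), with overlap, and it was 0.30 without KO-Nut3 RH6 and 0.21 with the choroid plexus mean as a term. The part of thalamic or choroid plexus tissue in these differences was not tested. *Hepacam*, a cell adhesion protein of astrocyte contacts, had 98.4 ± 5.65 CPM in KO and 87.6 ± 9.90 CPM in WT (SD, n = 6 each), with a log2 fold change of 0.17 (SE 0.07; edgeR adjusted *P*-value 0.536). Between KO-Nut3 and WT-Nut3 it was 0.21 (SE 0.08; edgeR adjusted *P*-value 0.928), without overlap (5.3% of all genes), and 0.12 without WT-Nut3 RH9. *Slc4a4*, a sodium bicarbonate cotransporter, had 246 ± 28.2 and 220 ± 10.8 CPM, a change of 0.16 (SE 0.07; edgeR adjusted *P*-value 0.538), with KO-Veh RH16 and KO-Nut3 RH6 the highest libraries at 280 CPM each. *Mlc1* (a membrane protein of the end-feet), *Atp1b2* (a subunit of the sodium pump), *Slc14a1* and *Slc7a10* had log2 fold changes of 0.08, 0.08, 0.05 and 0.22 between genotypes, each with an unadjusted *P*-value above 0.05.

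*Slc7a10*, a transporter of small neutral amino acids such as D-serine and glycine, had the largest log2 fold change of the members under Nutlin-3 over all 12 libraries, *Lcn2* left aside. It had 21.8, 23.7 and 20.9 CPM in WT-Veh and 24.2, 31.7 and 18.9 CPM in WT-Nut3. It had 22.9, 22.4 and 24.6 CPM in KO-Veh and 42.3, 20.9 and 33.7 CPM in KO-Nut3. The 3 highest libraries, KO-Nut3 RH6, KO-Nut3 RH13 and WT-Nut3 RH9, were the 3 with the most choroid plexus RNA, and of the other Nutlin-3 libraries WT-Nut3 RH1 lay among the vehicle libraries and WT-Nut3 RH14 and KO-Nut3 RH8 below them. The log2 fold change was 0.32 for Nutlin-3 against vehicle (SE 0.15, adjusted *P*-value 0.666) and 0.47 between KO-Nut3 and KO-Veh (SE 0.20, adjusted *P*-value 0.645), both in edgeR. With the choroid plexus mean as a term these values were -0.18 and -0.18, and without the 5 libraries named above, in WT mice alone, the first was 0.02. Without KO-Nut3 RH6 they were 0.20 and 0.23. Without KO-Nut3 RH8 the second passed the threshold in edgeR, at an adjusted *P*-value of 0.0201. In that fit 266 of all 22592 genes tested passed, against 45 with no library left out. The part of choroid plexus or thalamic tissue in this difference was not tested. The gene on the opposite strand whose exons it overlaps is *Lrp3*.

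The reactive-state secreted proteins were *Serpina3n* and *Lcn2*. *Serpina3n* (ENSMUSG00000021091, chromosome 12, 104406729 to 104414329 in GRCm38) encodes a secreted inhibitor of serine proteases that is among the genes known to rise most in reactive astrocytes. It has close paralogs in the same cluster, between which reads may be divided. It had 52.3, 39.7 and 42.1 CPM in WT-Veh and 42.7, 45.1 and 49.0 CPM in WT-Nut3. It had 33.1, 33.4 and 35.5 CPM in KO-Veh and 25.6, 32.7 and 34.9 CPM in KO-Nut3. All 6 KO libraries lay below all 6 WT libraries, a pattern that 0.359% of all genes tested had in this direction.

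The mean of *Serpina3n* was 32.5 ± 3.56 CPM in KO and 45.1 ± 4.69 CPM in WT (SD, n = 6 each), with a log2 fold change of -0.47 (SE 0.08, 95% interval -0.65 to -0.30). The adjusted *P*-value was 0.112 in edgeR, short of the threshold, and 0.000106 in DESeq2, past it. Within vehicle the log2 fold change was -0.39 (adjusted *P*-value 0.530 in edgeR, 0.131 in DESeq2) and within Nutlin-3 it was -0.56 (0.928 in edgeR, 0.0802 in DESeq2). The 3 KO libraries were below the 3 WT libraries in both, which 6.46% and 5.35% of all genes showed in this direction. Within the number run up to RH8 the means were 30.5 ± 4.19 CPM in KO and 44.9 ± 6.55 CPM in WT, and within the run from RH9 they were 34.6 ± 1.10 and 45.4 ± 3.45 CPM (SD, n = 3 each). The difference was as large without the 5 libraries named above, where KO is KO-Veh alone (-0.47, adjusted *P*-value 0.525 in edgeR), and it was -0.45 with the choroid plexus mean and -0.42 with the fibroblast mean as a term. Under Nutlin-3 the change was -0.05.

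*Lcn2* was near the limit of detection in nearly all libraries, and 3 counts per library were taken as its floor. Its counts were 0, 4 and 118 in WT-Veh, 1, 3 and 1 in WT-Nut3, 22, 4 and 5 in KO-Veh, and 18, 5 and 1 in KO-Nut3. WT-Veh RH15 thus held 118 of the 182 reads of the gene, which was 6.08 CPM, and all 3 WT-Nut3 libraries were at or under the floor. No fold change is given for *Lcn2*, because single libraries decide it. In edgeR its unadjusted *P*-value was 0.0126 between WT-Nut3 and WT-Veh (adjusted 0.998) and 0.0491 between KO-Nut3 and WT-Nut3 (adjusted 0.928).

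**Figure D4:**
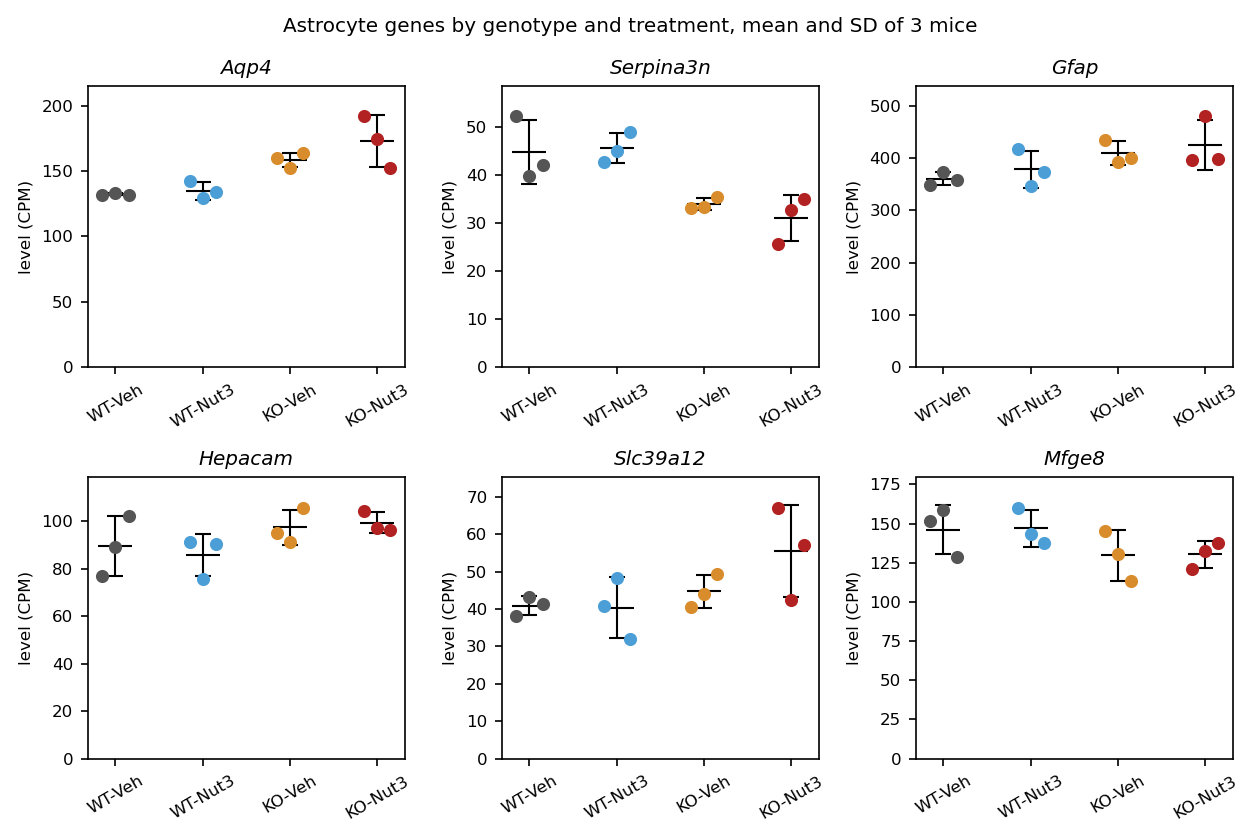
Level in CPM (vertical axis, from 0) of 6 astrocyte genes in the 4 groups, 1 point per mouse, with the mean and SD of 3 mice as black marks. *Aqp4* is at 152 to 192 CPM in KO and 129 to 142 CPM in WT, *Serpina3n* at 25.6 to 35.5 CPM in KO and 39.7 to 52.3 CPM in WT, and the 6 KO libraries overlap with the 6 WT libraries for the other 4 genes.

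The intermediate filament genes were *Gfap* and *Vim*. *Gfap* (ENSMUSG00000020932, chromosome 11, 102887336 to 102900912 in GRCm38) had 349, 374 and 358 CPM in WT-Veh and 417, 346 and 373 CPM in WT-Nut3. It had 435, 392 and 401 CPM in KO-Veh and 397, 480 and 398 CPM in KO-Nut3. KO libraries were above WT libraries with the exception of WT-Nut3 RH1, which lay among the KO libraries. The mean was 417 ± 34.6 CPM in KO and 369.7 ± 25.9 CPM in WT (SD, n = 6 each), with a log2 fold change of 0.18 (SE 0.06, 95% interval 0.05 to 0.30) with an adjusted *P*-value of 0.441 in edgeR and 0.176 in DESeq2. In vehicle-treated mice, where KO lay above WT without overlap (5.9% of all genes), it was 0.18 (SE 0.06; edgeR adjusted *P*-value 0.608). Between KO-Nut3 and WT-Nut3 it was 0.16 (SE 0.10, adjusted *P*-value 0.928), 0.07 without KO-Nut3 RH8, 0.06 with the fibroblast mean and 0.28 with the choroid plexus mean as a term. For Nutlin-3 against vehicle it was 0.06 (SE 0.06, adjusted *P*-value 0.879), and between KO-Nut3 and KO-Veh 0.05 (SE 0.09, adjusted *P*-value 0.914). With the choroid plexus mean as a term these were 0.21 and 0.27 (neither past the threshold), and without the 5 libraries the first was 0.16, in WT mice. Without KO-Nut3 RH8 they were 0.02 and -0.05, with the fibroblast mean as a term 0.05 and -0.04, and without WT-Nut3 RH1 the first was 0.03. Between WT-Nut3 and WT-Veh it was 0.07 (SE 0.07, adjusted *P*-value 0.998), with 0.002 without WT-Nut3 RH1, 0.14 without WT-Nut3 RH9 and 0.18 with the choroid plexus mean as a term, and for the interaction -0.02 (SE 0.12, adjusted *P*-value 0.998), all in edgeR.

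STAT3, which carries cytokine signals into the nucleus, is a known activator of *Gfap* and of other genes of reactive astrocytes, and its family binds DNA at TTCNNNGAA. The letters read the same on both strands. In the RefSeq table of promoters (GRCm38.p6, 250 bases before to 50 bases after the listed start), 28 of the 33 members had an entry. Of these, 5 held the motif (17.9%): *Acsbg1*, *Aldoc*, *Gfap*, *Ntsr2* and *Slc1a3*, against 9.55% of 27025 genes with an entry. The windows are shown because they place the motif of this pathway in *Gfap* and in genes for metabolism, glutamate uptake and a receptor, with the motif in capitals and each read 5′ to 3′ on the strand of the gene. *Gfap* lies on the minus strand of chromosome 11 at 102897186 to 102897210, where the motif begins 2 bases before the listed start; *Slc1a3* on the minus strand of chromosome 15 at 8710887 to 8710911; *Ntsr2* on the plus strand of chromosome 12 at 16653400 to 16653424; and *Acsbg1* on the minus strand of chromosome 9 at 54661895 to 54661919. *Aldoc* has 2 matches on the plus strand of chromosome 11, at 78324066 to 78324090 and 78324107 to 78324131.
Gfap: gggggtgcTTCCAGGAAgtcagggg
Slc1a3: caggatccTTCCAAGAAatttcagt
Ntsr2: tttggaggTTCCCAGAAaggaggtg
Acsbg1: aggctggcTTCATTGAAattctcct
Aldoc, first: gggccagaTTCAGTGAAagaagagc
Aldoc, second: gcagcagtTTCCAGGAAgacctgtg
By the gene bounds of GENCODE, the *Gfap*, *Aldoc* and *Ntsr2* windows lie inside the gene, and those of *Slc1a3* and *Acsbg1* lie just upstream of it. A match describes these letters only. The 5 genes did not move together between genotypes, with log2 fold changes of 0.18 for *Gfap*, 0.03 for *Acsbg1*, 0.03 for *Ntsr2*, 0.005 for *Aldoc* and -0.01 for *Slc1a3*.

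*Vim* encodes vimentin, a filament of reactive astrocytes and stem cells that fibroblasts, endothelium and other cells also make. It had 33.1, 50.6 and 43.7 CPM in WT-Veh and 37.5, 45.2 and 41.7 CPM in WT-Nut3. It had 38.5, 30.2 and 39.0 CPM in KO-Veh and 44.6, 66.0 and 43.7 CPM in KO-Nut3. The 3 KO-Nut3 libraries lay above the 3 KO-Veh libraries, which 7.85% of all genes did in this direction, and the WT groups overlapped. Between KO-Nut3 and KO-Veh the log2 fold change was 0.52 (SE 0.16, 95% interval 0.15 to 0.88) with an adjusted *P*-value of 0.406 in edgeR and 0.0905 in DESeq2. The highest libraries, KO-Nut3 RH8 and WT-Veh RH5, were also the highest for the meningeal fibroblast genes. The change was 0.29 without KO-Nut3 RH8 and 0.15 with the fibroblast mean as a term, and the part of fibroblasts in it was not tested. The interaction of genotype and treatment was 0.55 for *Vim* (SE 0.24, adjusted *P*-value 0.994), 0.33 without KO-Nut3 RH8 and 0.01 with the fibroblast mean as a term. Under Nutlin-3, over all 12 libraries, the change was 0.24 (SE 0.14, adjusted *P*-value 0.782), and 0.11 without KO-Nut3 RH8, 0.16 without KO-Veh RH10 and 0.04 in the WT mice left without the 5 libraries. For KO against WT it was 0.04 (SE 0.14, adjusted *P*-value 0.965), a direction that turned to -0.09 with the fibroblast mean as a term. It was -0.24 between KO-Veh and WT-Veh (SE 0.13, adjusted *P*-value 0.745), with -0.39 without WT-Veh RH2, -0.10 without WT-Veh RH5, -0.13 without KO-Veh RH10 and -0.09 with the fibroblast mean as a term. It was 0.31 between KO-Nut3 and WT-Nut3 (SE 0.16, adjusted *P*-value 0.928), which was 0.09 without KO-Nut3 RH8 and turned to -0.08 with the fibroblast mean as a term. Between WT-Nut3 and WT-Veh it was -0.03 (SE 0.13, adjusted *P*-value 0.998), which turned to 0.14 with that term, all in edgeR.

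Both glutamate transporters were lower on average in the Nutlin-3 groups, without passing the threshold. *Slc1a2* (GLT-1, which clears most synaptic glutamate in the forebrain) had 3301, 3311 and 3401 CPM in WT-Veh and 3408, 2748 and 3033 CPM in WT-Nut3. It had 3224, 3057 and 3382 CPM in KO-Veh and 2707, 3051 and 2991 CPM in KO-Nut3. The lowest libraries were KO-Nut3 RH6 and WT-Nut3 RH9, the 3 KO-Nut3 libraries lay below the 3 KO-Veh libraries (which 5.44% of all genes did in this direction), and WT-Nut3 RH1 was the highest of all. Under Nutlin-3, over all 12 libraries, the log2 fold change was -0.13 (SE 0.05, 95% interval -0.25 to -0.02, adjusted *P*-value 0.604 in edgeR). It was -0.02 with the choroid plexus mean as a term and -0.05 in the WT mice left without the 5 libraries with raised genes of other tissues. As a log2 ratio of mean CPM it was -0.10 within the number run up to RH8 and -0.17 within that from RH9.

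*Slc1a3* (GLAST, the other astrocyte glutamate transporter) had 616, 622 and 705 CPM in WT-Veh and 622, 551 and 584 CPM in WT-Nut3. It had 591, 593 and 806 CPM in KO-Veh and 491, 608 and 591 CPM in KO-Nut3. The highest libraries were KO-Veh RH16 and WT-Veh RH15 and the lowest KO-Nut3 RH6, and the treatments overlapped. Under Nutlin-3, over all 12 libraries, the log2 fold change was -0.19 (SE 0.08, 95% interval -0.36 to -0.02, adjusted *P*-value 0.625 in edgeR), -0.11 with the choroid plexus mean as a term, -0.11 without KO-Veh RH16 and -0.07 without both WT-Veh RH15 and KO-Veh RH16. As a log2 ratio of mean CPM it was -0.09 within the number run up to RH8 and -0.29 within that from RH9. *Glul*, which turns glutamate into glutamine, had 1303 ± 112 CPM in WT-Veh, 1305 ± 80.5 CPM in WT-Nut3, 1367 ± 106 CPM in KO-Veh and 1364 ± 48.2 CPM in KO-Nut3 (SD, n = 3 each), with a log2 fold change of -0.001 under Nutlin-3. All 3 genes had log2 fold changes between -0.06 and 0.07 for KO against WT.

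The gap junction genes were *Gja1* (connexin 43) and *Gjb6* (connexin 30), whose channels couple astrocytes into networks. *Gja1* was among the steadiest members, at 187 to 218 CPM in all 12 libraries. *Gjb6* had 35.9, 51.5 and 63.3 CPM in WT-Veh and 38.04, 41.1 and 42.2 CPM in WT-Nut3. It had 46.7, 51.4 and 60.1 CPM in KO-Veh and 56.8, 60.9 and 49.5 CPM in KO-Nut3. The WT-Veh libraries covered the whole range of the others, while the 3 KO-Nut3 libraries lay above the 3 WT-Nut3 libraries, as for 5.3% of all genes. Between KO-Nut3 and WT-Nut3 the log2 fold change of *Gjb6* was 0.46 (SE 0.09, 95% interval 0.25 to 0.66) with an adjusted *P*-value of 0.928 in edgeR and 0.111 in DESeq2, and 0.30 with the fibroblast mean as a term. For KO against WT it was 0.26 (SE 0.12; edgeR adjusted *P*-value 0.587), and 0.08 without the 5 libraries named above, all 3 of KO-Nut3 among them.

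Of the metabolic genes, *Aldh1l1* (a folate enzyme widely used as an astrocyte marker), *Aldoc*, *Acsbg1* (acyl-CoA synthetase), *Cbs* and *Plpp3* (lipid phosphate phosphatase), the log2 fold changes between genotypes lay between -0.08 and 0.03. *Plpp3* had 305 ± 26.4 CPM in the 6 vehicle libraries and 276 ± 22.7 CPM in the 6 Nutlin-3 libraries (SD), a log2 fold change of -0.14 (SE 0.06; edgeR adjusted *P*-value 0.659). The treatments overlapped, with KO-Veh RH16 highest at 343 CPM and WT-Nut3 RH9 lowest at 250 CPM. It was -0.09 without KO-Veh RH16 and -0.07 both with the choroid plexus mean as a term and without WT-Veh RH15 and KO-Veh RH16. As a log2 ratio of mean CPM it was -0.03 within the number run up to RH8 and -0.26 within that from RH9.

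The transcription factor *Sox9*, the receptors *Fgfr3* (fibroblast growth factor receptor 3) and *Ntsr2* (neurotensin receptor 2), *F3* (tissue factor) and *Gpc5* had log2 fold changes of -0.11 to 0.04 for KO against WT and of -0.08 to 0.10 under Nutlin-3. *Sox9*, which sets up and keeps the glial state, had 42.3, 40.4 and 36.7 CPM in WT-Veh and 37.9, 33.4 and 33.8 CPM in KO-Veh. These groups overlapped, and the log2 fold change was -0.18 (SE 0.08; edgeR adjusted *P*-value 0.673). *Gpc5* had KO-Veh libraries above WT-Veh libraries without overlap (5.9% of all genes), at 39.4 to 39.9 against 37.6 to 39.3 CPM, a difference of 0.04 on the log2 scale.

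Among the calcium-binding and secreted proteins, *Clu* (clusterin, a secreted chaperone and apolipoprotein) had 692, 694 and 753 CPM in WT-Veh and 755, 806 and 710 CPM in WT-Nut3. It had 690, 643 and 726 CPM in KO-Veh and 781, 704 and 809 CPM in KO-Nut3. Its 3 highest libraries, KO-Nut3 RH13, WT-Nut3 RH9 and KO-Nut3 RH6, were those highest for the choroid plexus genes. The log2 fold change under Nutlin-3 was 0.12 (SE 0.05; edgeR adjusted *P*-value 0.612), and 0.001 with the choroid plexus mean as a term and 0.02 in WT mice without the 5 libraries named above. The part of choroid plexus tissue in the difference was not tested. *Mfge8* (a secreted protein that marks cells for engulfment) had 130 ± 11.5 CPM in KO and 147 ± 12.3 CPM in WT (SD, n = 6 each). Its log2 fold change was -0.17 for KO against WT (SE 0.07; edgeR adjusted *P*-value 0.512; -0.11 without the 5 libraries) and -0.18 between KO-Nut3 and WT-Nut3 (SE 0.08, adjusted *P*-value 0.928; -0.11 without WT-Nut3 RH1), and the genotypes overlapped in both. *S100b* (a calcium-binding protein), *Cst3*, *Htra1* (a secreted serine protease) and *Thbs4* had log2 fold changes of 0.15, 0.02, 0.05 and -0.10 between genotypes, each with an unadjusted *P*-value above 0.05.

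**Figure D5:**
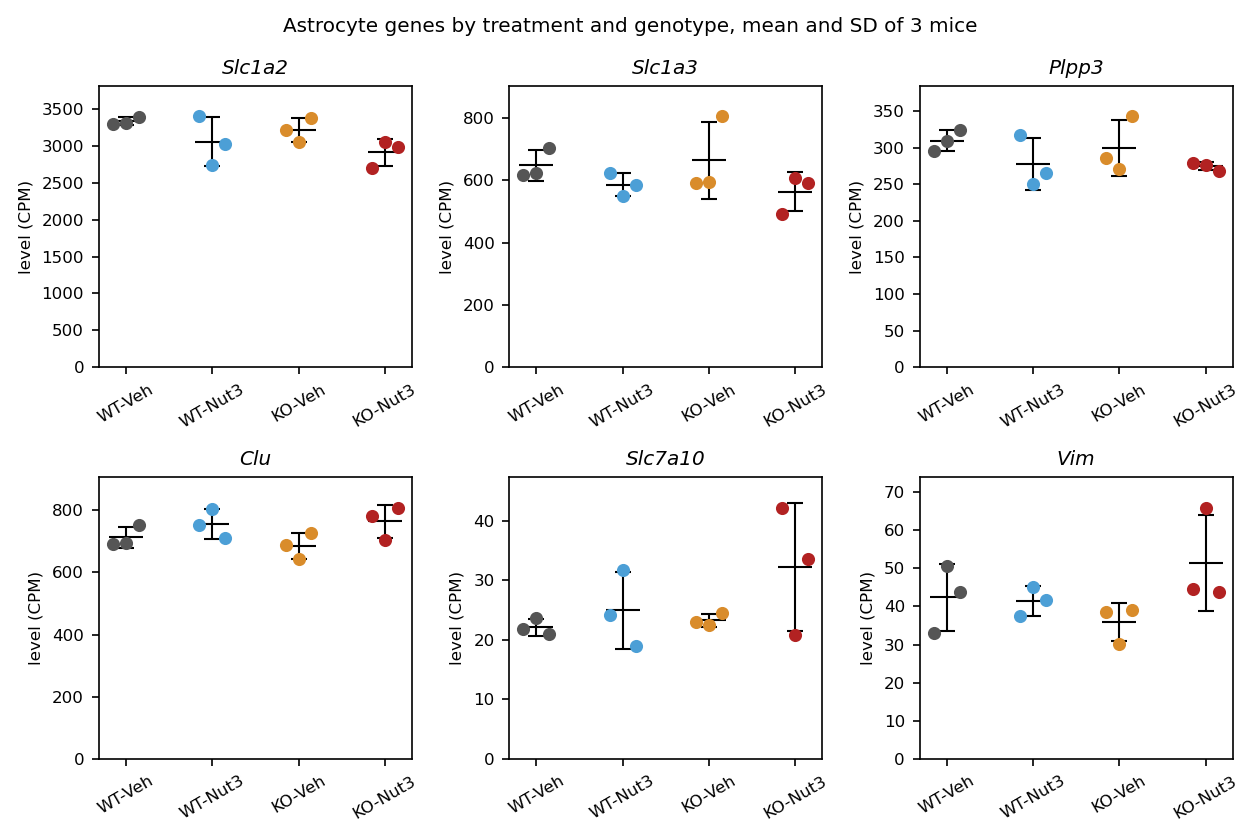
Level in CPM (vertical axis, from 0) of 6 astrocyte genes in the 4 groups, 1 point per mouse, with the mean and SD of 3 mice as black marks. *Slc1a2*, *Slc1a3* and *Plpp3* are lower on average and *Clu*, *Slc7a10* and *Vim* higher in the 6 Nutlin-3 libraries than in the 6 vehicle libraries, by at most 0.32 on the log2 scale, and the treatments overlap in all 6 genes.

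For many members single libraries, not groups, held the extremes. WT-Veh RH15 and KO-Veh RH16 were the 2 highest libraries for 10 of the 33 members, which was so for 2.14% of all genes tested. The 10 were *Slc1a3*, *Glul*, *S100b*, *Aldoc*, *Fgfr3*, *Mlc1*, *F3*, *Plpp3*, *Htra1* and *Cst3*. *Cst3* had 1203 CPM in WT-Veh RH15 and 1224 CPM in KO-Veh RH16 and 870 to 951 CPM in the other 10 libraries. *S100b* had 100.1 and 117 CPM in them and 78.5 to 99.4 CPM in the others. *Cbs* was lowest in these libraries. They come from different genotypes, both from vehicle-treated mice, and they had the largest shares of reads mapped to several places, 3.55% and 3.46%. WT-Nut3 RH9, high in choroid plexus RNA, was the lowest library for 12 of the 33 members, against 7.41% of all genes.

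KO-Nut3 RH6, the library with thalamic genes, was the highest for 8 of the 33 members, where it was highest for 15.3% of all genes. With only genes of a median of 1 CPM or more counted, 2 of the 33 members were there at least 1.5 times the median of the other 11 libraries. They were *Slc7a10* at 1.84 and *Slc39a12* at 1.58 times (6.37% of all such genes). *Lcn2*, below that limit, had 0.998 CPM there against a median of 0.210 CPM. *Atp1b2* was at 529 CPM against 356 to 448 CPM elsewhere. Of the further astrocyte genes described next, 8 of 44 were at least 1.5 times the median of the others in this library. *Slc6a11*, the GABA transporter GAT-3, had 397 CPM in KO-Nut3 RH6 and 143 to 185 CPM elsewhere. *Agt* (angiotensinogen) had 63.7 against 15.3 to 27.3 CPM and *Kcnj10* (the potassium channel Kir4.1) 279 against 132 to 187 CPM. These 3 genes were named after their values were seen. *Gja1* stood at 218 CPM in this library against 187 to 205 CPM elsewhere.

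Of 44 further astrocyte genes, 0 passed the threshold in edgeR in each of the 7 comparisons, and DESeq2 called 1 for KO-Veh against WT-Veh (*Dio2*; 0.12% of all genes), 1 for Nutlin-3 against vehicle (*Fgfr2*; 0.35% of all genes) and 0 in the other comparisons. For KO against WT, 4 of 44 had an unadjusted *P*-value under 0.05 (8.16% of all genes), all higher in KO (3.8% of all genes), and the median log2 fold change was 0.06, against 0.01 over all genes. Of these, *Paqr6* (a membrane progestin receptor) had 8.38 ± 0.578 CPM in WT and 10.7 ± 1.75 CPM in KO (SD, n = 6 each), a change of 0.35 (SE 0.11, edgeR adjusted *P*-value 0.436). Its highest library was KO-Nut3 RH6, at 13.3 CPM against 7.90 to 11.6 CPM in the other 11. *Dio2*, the deiodinase with which astrocytes make active thyroid hormone, had 47.95, 51.1 and 67.1 CPM in WT-Veh and 70.5, 83.2 and 81.0 CPM in KO-Veh. KO-Veh lay above WT-Veh without overlap (5.9% of all genes), with a log2 fold change of 0.50 and an adjusted *P*-value of 0.410 in edgeR and 0.00747 in DESeq2. *Dio2* passed in edgeR with the number run as a term (0.40, adjusted *P*-value 0.0389) and without WT-Veh RH15 (0.67, adjusted *P*-value 0.00558). In these fits 21 and 11 of all 22592 genes tested passed. Under Nutlin-3 it had 50.5, 59.6 and 61.4 CPM in WT and 50.4, 75.4 and 63.6 CPM in KO, which overlapped, and over all 12 libraries the change between genotypes was 0.32 (edgeR adjusted *P*-value 0.449). *Slc25a18*, a mitochondrial glutamate carrier, changed by 0.22 (adjusted *P*-value 0.584), with KO-Nut3 RH6 highest at 67.1 CPM.

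Under Nutlin-3, over all 12 libraries, the median of the 44 genes was -0.001 and 3 had an unadjusted *P*-value under 0.05 (7.29% of all genes). *Fgfr2*, a fibroblast growth factor receptor that astrocytes and oligodendrocytes make, had 44.1, 52.2 and 45.8 CPM in WT-Veh and 59.6, 57.6 and 57.0 CPM in WT-Nut3. It had 55.3, 52.7 and 44.1 CPM in KO-Veh and 68.2, 61.3 and 64.1 CPM in KO-Nut3. All 6 Nutlin-3 libraries lay above all 6 vehicle libraries, which 0.15% of all genes did in this direction. The log2 fold change was 0.32 (SE 0.06) with an adjusted *P*-value of 0.155 in edgeR and 0.000812 in DESeq2. It was 0.31 with the choroid plexus mean as a term, 0.31 with the fibroblast mean and 0.38 without the 5 libraries with raised genes of other tissues, which leaves 2 WT-Nut3 against 2 WT-Veh libraries and no KO-Nut3 library. The means were 63.0 ± 4.52 and 50.5 ± 5.79 CPM in the number run up to RH8 and 59.6 ± 3.96 and 47.5 ± 4.56 CPM in that from RH9, for Nutlin-3 and vehicle (SD, n = 3 each). The 9 oligodendrocyte genes had a median change of 0.26 under Nutlin-3, with 6 of 9 at an unadjusted *P*-value under 0.05 and 0 called by edgeR or DESeq2. Their sum was 3711 to 5533 CPM in vehicle and 4608 to 6340 CPM in Nutlin-3 libraries, their most abundant gene, *Mbp* (myelin basic protein), had 1798 to 2514 and 2089 to 2874 CPM, and none was at 0 in any library. Their part in the difference of *Fgfr2* was not tested. *Slco1c1*, a carrier of thyroid hormone, had 91.9 CPM in WT-Nut3 RH9 and 89.8 CPM in KO-Nut3 RH13, the libraries highest for choroid plexus genes, and 46.3 to 71.9 CPM in the others. Its change was 0.35 (adjusted *P*-value 0.604), and that of *Ttyh1*, a chloride channel, was -0.09 (adjusted *P*-value 0.666). Between KO-Nut3 and KO-Veh the median was 0.02, and *Fgfr2* and *Slco1c1* changed by 0.34 and 0.43 (adjusted *P*-values 0.255 and 0.278) and *Prodh* (proline dehydrogenase) by 0.21 (adjusted *P*-value 0.594), all in edgeR.

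Lists of genes that reactive astrocytes raise in general, in a neurotoxic state or in a protective state were read the same way. Of 9 general genes, 11 neurotoxic-type genes and 11 protective-type genes tested, 0 passed in edgeR in any of the 7 comparisons. For KO against WT, where *Serpina3n* was lower, the medians of the 3 lists were 0.19, 0.007 and 0.02 (-0.27, -0.11 and -0.11 between KO-Veh and WT-Veh, and 0.44, 0.28 and 0.18 between KO-Nut3 and WT-Nut3), an unadjusted *P*-value under 0.05 was found for 1, 1 and 0 genes (8.16% of all genes), and DESeq2 called 0 (0.204%). The smallest *P*-values were those of *Hspb1* (a small heat shock protein, 0.63, adjusted *P*-value 0.417), *Iigp1* (an interferon-induced GTPase, 0.56, adjusted *P*-value 0.548) and *S100a10* (-0.20, adjusted *P*-value 0.623). Between KO-Nut3 and KO-Veh the medians were 0.22, 0.22 and 0.14, with 4, 3 and 2 genes at an unadjusted *P*-value under 0.05 (7.6% of all genes), all higher in KO-Nut3. DESeq2 called 2 general genes there, *Steap4* and *Cp*, and 2 neurotoxic-type genes, *Serping1* and *Fbln5* (1.08% of all genes). *Cp* (ceruloplasmin), the most abundant of the general genes, had 15.3, 9.42 and 14.8 CPM in KO-Veh and 22.6, 29.4 and 19.3 CPM in KO-Nut3. KO-Nut3 lay above KO-Veh (7.85% of all genes), and its change was 0.85 (SE 0.20, adjusted *P*-value 0.196 in edgeR, 0.00334 in DESeq2), 0.76 with the choroid plexus mean and 0.23 with the fibroblast mean as a term. *Serping1* (the inhibitor of complement C1) had 4.03, 3.95 and 4.84 CPM in KO-Veh and 8.87, 13.9 and 8.51 CPM in KO-Nut3, a change of 1.28 (SE 0.22; edgeR adjusted *P*-value 0.0563), 1.116 with the choroid plexus mean and 0.41 with the fibroblast mean as a term. It passed in edgeR without KO-Nut3 RH6 (adjusted *P*-value 0.0239) and without KO-Nut3 RH8 (0.0266). In these fits 65 and 266 of all 22592 genes tested passed, against 45 with no library left out. *Fbln5* (fibulin-5) had a change of 1.10 (edgeR adjusted *P*-value 0.164), 0.82 with the choroid plexus mean and 0.38 with the fibroblast mean. *Steap4* (a metalloreductase) was at 0.103 to 0.285 CPM in KO-Veh, near the floor, and at 0.516 to 2.20 CPM in KO-Nut3. Its change was 3.10 (SE 0.64, adjusted *P*-value 0.128 in edgeR, 0.00345 in DESeq2), -0.18 with the choroid plexus mean and 3.02 with the fibroblast mean as a term, and it passed in edgeR without KO-Nut3 RH8 (adjusted *P*-value 0.00400). WT-Veh RH5, the fibroblast-rich library of the WT mice, had 10.1 CPM of *Serping1* and 23.01 CPM of *Cp*, the highest of the WT libraries. These genes are made by fibroblasts or choroid plexus as well as by astrocytes, and the part of each tissue was not tested.

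Of 10 genes of the radial glia-like stem cells and their progeny, 0 passed in edgeR or DESeq2 for KO against WT, for Nutlin-3 against vehicle or between KO-Nut3 and KO-Veh, with 2, 1 and 2 genes at an unadjusted *P*-value under 0.05 (8.16%, 7.29% and 7.6% of all genes). For KO against WT 1 of the 2 was higher and 1 lower. Between KO-Veh and WT-Veh 0 passed and 2 had such a *P*-value (7.2% of all genes), both lower in KO-Veh. In that pair KO-Veh lay below WT-Veh without overlap for 3 of the 10 (6.46% of all genes) and above for 1 (5.9%). *Nes* (nestin) averaged 11.5 ± 2.01 CPM in KO-Veh and 15.4 ± 3.15 CPM in KO-Nut3 (SD, n = 3 each), a change of 0.42 (edgeR adjusted *P*-value 0.616). *Lpar1* (a lysophosphatidic acid receptor) averaged 24.0 ± 2.77 and 30.3 ± 2.63 CPM in the same groups, a change of 0.34 (edgeR adjusted *P*-value 0.422). Markers of several other cells and tissues were also higher on average in KO-Nut3 than in KO-Veh, while the medians were -0.08 for 9 microglia genes, all 9 below 0, and -0.12 for 10 neuron genes, 8 of them below 0. The median was 4.91 for the choroid plexus genes, of which 5 of 14 passed in edgeR, and 1.38 for the fibroblast genes, of which 1 of 12 passed (0.199% of all genes). DESeq2 called 13 of these 14 and 7 of these 12 (1.08% of all genes). The median was 0.65 for the ependyma genes and 0.43 for the thalamus genes, of which 0 passed in edgeR, as was the case for the 3 lists that follow. All 9 oligodendrocyte genes were above 0 there, with a median of 0.21. Of 8 endothelium genes, 5 had an unadjusted *P*-value under 0.05, all higher in KO-Nut3, and their sum was 252 to 291 CPM in KO-Veh and 304 to 329 CPM in KO-Nut3 (*Flt1*, the most abundant, 67.7 to 72.1 and 75.1 to 87.8 CPM; none at 0). All 8 mural cell genes were above 0, with a median of 0.50 and 1 called by DESeq2 (1.08% of all genes). Their sum was 171 to 199 CPM in KO-Veh and 209.9 to 292 CPM in KO-Nut3 (*Rgs5*, the most abundant, 76.7 to 93.2 and 88.9 to 106 CPM, with *Tagln* at 0 in 3 libraries). The part of these cells and tissues in the differences of *Nes* and *Lpar1* was not tested.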

How the data were processed

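Poly(A) RNA of 12 hippocampi was sequenced. The authors mapped the reads to mm10 with STAR and deposited raw read counts per gene, unnormalized; the annotation they used is not given in the sources used here. A table that repeats these counts for part of the genes was not used. The counts of both strands together were taken, and groups came from the sample labels. Reads not assigned to a single gene (21.2% to 22.6% of all reads, those mapped to several places among them) were left out. Of the 55421 genes, 55240 matched GENCODE M21 (GRCm38), the source of symbols, positions and exon lengths.

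Genes needed over 20 counts summed across libraries, which left 22592. They were tested in edgeR 4.0.16 (R 4.3.3, TMM factors, two-sided quasi-likelihood test) with Benjamini-Hochberg adjustment over all of them, in place of the DESeq2 of the methods. Pairs were fitted on their 6 libraries, genotype, treatment and their interaction on 12. The standard error is the size of the log2 fold change divided by the square root of *F*. Members and lists were chosen with earlier results of these data known. Fold changes with their errors and tests are given for members with an unadjusted *P*-value under 0.05 and for *Gfap* and *Vim*, the other members by levels or log2 fold change alone, and of other lists for up to 3 genes with the smallest *P*-values. *P*-values measure the spread between 3 mice per group, and floors cover counting error only. Alternatives were DESeq2 1.42.0, other size factors and filters, added terms and left-out libraries. Those with the fibroblast mean, without 5 libraries and without WT-Veh RH15 and KO-Veh RH16 were chosen after seeing the data. The values of 1 stem cell gene are not reported here.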

Additional observations from a re-analysis of the deposited data

How the results depend on the processing

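The count of members past the threshold was 0 in all 7 comparisons and stayed 0 with DESeq2 size factors, the filterByExpr filter, all 12 libraries in one fit and with the choroid plexus or fibroblast mean as a term. DESeq2 gave 1 between KO-Veh and WT-Veh (27 of all 22592 genes tested) and 2 for KO against WT (46 of all genes). The number run as a term gave 1 for KO against WT (10 of all genes). Testing every gene with at least 1 count gave 1 between KO-Nut3 and KO-Veh (544 of all 35930 genes then tested). It gave 3 between KO-Veh and WT-Veh (272 of all genes) and 2 between WT-Nut3 and WT-Veh (249). Between KO-Nut3 and WT-Nut3 it gave 2 (38) and for KO against WT 4 (239). Nutlin-3 against vehicle gave 3 (539) and the interaction 2 (291). Leaving out single libraries gave 0 to 1 between KO-Nut3 and KO-Veh, 0 to 2 for KO against WT and 0 in the other comparisons. The 1 was *Slc7a10* without KO-Nut3 RH8 (edgeR adjusted *P*-value 0.0201), where 266 of all genes passed. The 2 were *Aqp4* and *Serpina3n* without KO-Nut3 RH6 (edgeR adjusted *P*-values 0.0320 and 0.0389), where 10 of all genes passed. Without KO-Nut3 RH13 it was *Aqp4* alone (edgeR adjusted *P*-value 0.0427), where 2 of all genes passed. The counts of members at an unadjusted *P*-value under 0.05 also moved when single libraries were left out. They were 0 to 5 between KO-Nut3 and KO-Veh, where the count over all 22592 genes tested was 1056 to 2205. They were 4 to 11 between KO-Veh and WT-Veh (1095 to 2187 of all genes) and 0 to 6 between WT-Nut3 and WT-Veh (591 to 1158). They were 4 to 8 between KO-Nut3 and WT-Nut3 (684 to 1437 of all genes) and 4 to 10 for KO against WT (1362 to 2114). Nutlin-3 against vehicle gave 0 to 6 (1221 to 1812 of all genes) and the interaction 0 to 3 (693 to 1275). Over all alternatives for KO against WT, *Aqp4* lay between 0.26 and 0.34 (adjusted *P*-values 6.29e-06 to 0.674) and *Serpina3n* between -0.52 and -0.41 (1.24e-07 to 0.525). The 36 named log2 fold changes were refitted 633 times, and 594 of the values kept their direction and their side of the threshold, 20 passed it and 19 turned.

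With the choroid plexus mean as a term, *Slc7a10* was at -0.18 between KO-Nut3 and KO-Veh and -0.18 under Nutlin-3, and the *Gfap* interaction was 0.085. With the fibroblast mean as a term, *Gfap* was at -0.042 between KO-Nut3 and KO-Veh, and *Vim* at 0.14 between WT-Nut3 and WT-Veh, -0.078 between KO-Nut3 and WT-Nut3 and -0.085 for KO against WT. Without the 5 libraries, *Vim* was at 0.043 between WT-Nut3 and WT-Veh and -0.10 for KO against WT. Leaving out single libraries moved *Gfap* between -0.048 and 0.10 for KO-Nut3 against KO-Veh and its interaction between -0.11 and 0.046, and *Vim* between -0.19 and 0.11 for WT-Nut3 against WT-Veh and between -0.093 and 0.13 for KO against WT. The cause was not tested. The median of the 33 genes stayed between -0.08 and 0.11 in every alternative. *Lcn2* had only 0 to 118 counts per library, while every other member had at least 224 counts in each. No paired analysis was possible because the groups share no replicate numbers.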
